A study of Homo sapiens with 6 samples.

Results

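The genes examined were 10 transcription factors of the ETS family, out of 37887 rows in the count table, measured in MDA-MB-436 cells. MDA-MB-436 is a widely used line from a triple-negative breast cancer with mutant BRCA1. All libraries came from cells stably carrying a tetracycline-inducible shRNA against MUC1, delivered in a lentiviral vector with puromycin selection. The control group (n = 3) received 0.1% DMSO vehicle and the shMUC1 group (n = 3) received doxycycline at 500 ng/ml. A doxycycline-treated line with a control shRNA was not analysed here, so doxycycline itself and MUC1 silencing cannot be told apart, and the titles of the vehicle samples name a control shRNA while their treatment labels give vehicle on the inducible cells. The members were 4 genes of the epithelium-specific group (ELF3, EHF, ELF5 and SPDEF) and 6 of other subfamilies (ETS1, ETS2, ETV1, ETV4, ETV5 and ELK3). They were chosen from their measured values in this same contrast, so their changes are given as a description, with no test.

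ETS factors share a DNA-binding domain that recognizes a GGAA core, and differ in the partners and kinase signals that they respond to. ELF3, EHF and ELF5 are expressed chiefly in epithelial cells, where they support differentiation genes, and SPDEF is a factor of secretory and luminal epithelium. ETS1 and ETS2 are phosphorylated by ERK, the PEA3 factors ETV1, ETV4 and ETV5 are themselves induced downstream of receptor tyrosine kinases, and ELK3 is a ternary complex factor that binds with SRF and can repress its targets.

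Library totals ran from 18678307 to 27825546 counts, and the shallowest was shMUC1 replicate 3. MUC1, the targeted gene, had 93, 84 and 102 counts in the controls against 72, 51 and 34 with shMUC1, and fell by 0.84 on the log2 scale (SE 0.214, adjusted p = 0.00119 by the quasi-likelihood test in edgeR, adjusted by Benjamini-Hochberg). The cells expressed mesenchymal markers, with VIM, the intermediate filament vimentin, at 718 ± 26.0 counts per 1000000 (CPM, SD, n = 3) in control cells. ESR1 had 6, 2 and 6 counts and PGR had 0, 4 and 2 in control libraries. These are the estrogen and progesterone receptors that a triple-negative line lacks. Across all 15355 genes tested the median log2 fold change was 0.00058.

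The upstream sequence of ELF3 is shown because ELF3 had the largest difference among the members. It comprises the 250 bases before the transcription start in RefSeq (GRCh38.p14, chr1:202010337-202010586, plus strand), with the motifs searched in capitals.

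ELF3 upstream: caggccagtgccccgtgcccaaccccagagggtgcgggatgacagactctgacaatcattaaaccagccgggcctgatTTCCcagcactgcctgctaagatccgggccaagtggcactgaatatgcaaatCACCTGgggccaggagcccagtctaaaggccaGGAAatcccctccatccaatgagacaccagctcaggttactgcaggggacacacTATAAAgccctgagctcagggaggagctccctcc

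Both strands were searched for GGAA, the longer ETS site CCGGAAG (which contains GGAA), the E-box CACCTG that ZEB and SNAI proteins bind, and TATAAA. The ELF3 window held the GGAA core at -172 (on the other strand) and -88, CACCTG at -120 and TATAAA at -34, counted from the start, and no CCGGAAG. Among 35116 promoter windows of the same length, 92.7% held GGAA, 8.52% CCGGAAG, 17.5% CACCTG and 10.7% TATAAA. A match is a description of letters and not a shown binding site.

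A second set of sequences is shown because earlier work on these counts tied the word ATCAGTA in 3′ untranslated regions (3′ UTRs) to lower expression in shMUC1 cells. Of the 28 ETS family genes, ELK3, FLI1 and ELK4 held it, and the 29 bases around each site are printed with the word in capitals. The ELK3 site starts at base 1033 of a 3′ UTR of 2655 bases, the FLI1 site at base 670 of 2710, and the ELK4 sites at bases 1614 and 4006 of 8603, read from the longest such UTR of each gene in GENCODE 29. The word was in 1 of 3 annotated 3′ UTRs of ELK3, 2 of 6 of FLI1 and 1 of 3 of ELK4.

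ELK3: taggtatcttcATCAGTAtaggtaggtgt
FLI1: gggcacaaacgATCAGTAagaatacagag
ELK4, first site: actgaattgatATCAGTAtcacagtggag
ELK4, second site: cacacaaattgATCAGTAagagttattga

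ELF3 was higher in shMUC1 cells, whereas ETS1 and ELK3, members of other subfamilies, were lower. ELF3 (ENSG00000163435.15, chromosome 1, 202007945-202017188, plus strand, in GENCODE 29 on GRCh38, as for the genes that follow) had 62, 95 and 86 counts in the controls against 393, 399 and 245 with shMUC1. Every shMUC1 library stood above every control library, including the shallowest. Its level went from 3.35 ± 0.537 CPM (SD, n = 3) to 14.3 ± 1.16 CPM (SD, n = 3), a log2 fold change of 2.09 (SE 0.136), or 4.26-fold. Of all genes tested, 55 (0.358%) had a larger log2 fold change.

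The exons of ELF3 overlap those of ELF3-AS1 on the opposite strand and of AL691482.3 on its own strand. ELF3-AS1 had 44, 36 and 52 counts in the controls against 118, 108 and 73 with shMUC1, a log2 fold change of 1.17 (SE 0.215, adjusted p = 1.86e-05 by edgeR). The antisense transcript was named after its values were seen. It had fewer counts than ELF3 in all 6 libraries, and reads of the pair cannot be told apart if strand was not used in counting, which the sources used here do not state.

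The other epithelium-specific factors were at or near 0. EHF (chromosome 11, 34621093-34661057) had 2, 4 and 0 counts in the controls against 10, 8 and 0 with shMUC1. The groups overlapped, since 1 library of each had none, and EHF did not pass the filter on low counts. ELF5, a regulator of mammary alveolar differentiation, and SPDEF had 0 counts in all 6 libraries. A count of 0 allows up to 3 counts, which is between 0.108 and 0.161 CPM in these libraries, and covers counting error only. ELF5 (minus strand) and EHF (plus strand) lie 107 kb apart on chromosome 11, so the undetected gene and the barely detected gene are neighbours.

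**Figure D1:**
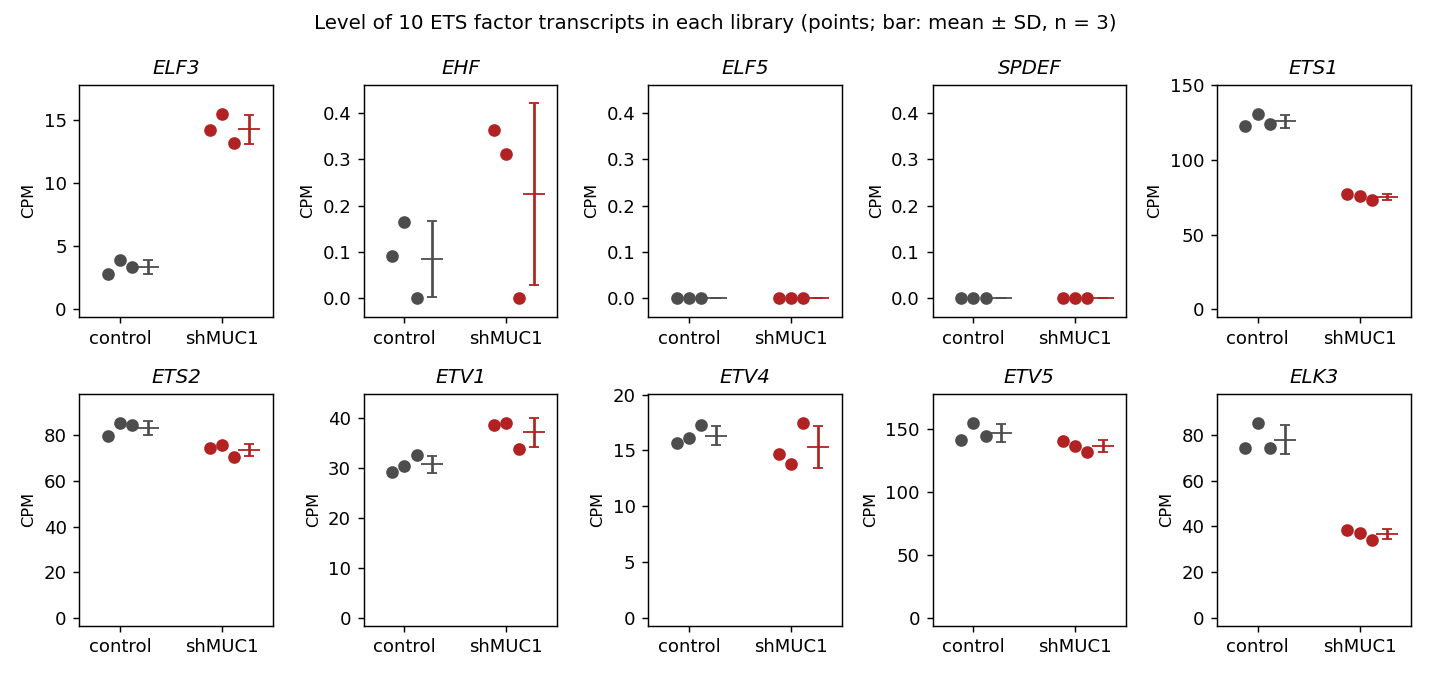
Counts per 1000000 (CPM, linear axes that include 0) of the 10 members in each library, with control in grey and shMUC1 in red, and a bar for the mean ± SD (n = 3). ELF3 sits near 3.35 in control and 14.3 in shMUC1 cells, ETS1 and ELK3 drop with no overlap, ETV4 overlaps, and ELF5 and SPDEF lie at 0.

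ETS1 and ETS2, the founding pair of the family, were both lower in shMUC1 cells. ETS1 (chromosome 11, 128458761-128587558) had 2698, 3183 and 3201 counts in the controls against 2133, 1949 and 1360 with shMUC1. The CPM values were 126 ± 4.17 against 75.3 ± 2.07 (SD, n = 3 each), or -0.74 as a log2 fold change (SE 0.043). The groups were far apart. ETS2 (chromosome 21, 38805307-38824955) had 1742, 2080 and 2186 counts in the controls against 2060, 1953 and 1315 with shMUC1. On the CPM scale ETS2 went from 83.2 ± 3.23 to 73.7 ± 2.68, a log2 fold change of -0.17 (SE 0.048), and its groups were adjacent without overlapping.

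The PEA3 factors had small log2 fold changes of both signs. ETV1 (chromosome 7, 13891228-13991425) had 639, 738 and 842 counts in the controls against 1067, 1004 and 629 with shMUC1, or 30.7 ± 1.76 and 37.1 ± 2.89 CPM, and a log2 fold change of 0.28 (SE 0.071). The lowest shMUC1 library for ETV1 (33.8 CPM) stood just above the highest control library (32.6 CPM). ETV4 (chromosome 17, 43527844-43579620) had 343, 392 and 446 counts in the controls against 406, 356 and 325 with shMUC1, with 16.3 ± 0.838 and 15.3 ± 1.90 CPM and a log2 fold change of -0.10 (SE 0.099). Its groups overlapped, and its exons overlap DHX8 on the opposite strand. ETV5 (chromosome 3, 186046308-186110318), which shares exon bases with DGKG on its own strand, had 3091, 3766 and 3734 counts in the controls against 3885, 3515 and 2443 with shMUC1. At 147 ± 7.07 and 136 ± 4.65 CPM its log2 fold change was -0.11 (SE 0.041), with the nearest libraries of the groups at 141.0 and 140.6 CPM.

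ELK3 (chromosome 12, 96194382-96269835) was the most reduced member. It had 1632, 2076 and 1918 counts in the controls against 1062, 960 and 633 with shMUC1, and the groups did not overlap. Its exons overlap AC008149.1 on the opposite strand. Its level went from 78.0 ± 6.28 to 36.6 ± 2.29 CPM (SD, n = 3 each), with a log2 fold change of -1.09 (SE 0.060), or 2.12-fold lower. Of all genes tested, 528 (3.44%) had a lower value. In bulk RNA, fewer cells of a type and less RNA per cell cannot be told apart.

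Of the 10 members, 7 passed the filter on low counts (all but EHF, ELF5 and SPDEF). At an adjusted p under 0.05, 2 were higher and 4 lower in shMUC1 cells, beside 25.2% and 23.6% of all genes tested, and with a fold change over 2 added 1 was higher (ELF3) and 1 lower (ELK3), beside 2.21% and 3.74%. Of the 4 lower genes, ETV5 lost its place under 5 of 15 alternatives, 3 of which left out control replicate 2, shMUC1 replicate 2 or shMUC1 replicate 3, with log2 fold changes between -0.13 and -0.07 over all settings. The groups did not overlap for 6 of the 7, beside 54.8% of all genes tested. The members were chosen on this contrast, and nothing is read from these counts. The 6 members of other subfamilies had a median log2 fold change of -0.14, and ELF3, the only tested member of the epithelium-specific group, stood at 2.09.

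The rest of the family comprised 18 genes, of which 12 passed the filter on low counts. Of these 12, 4 rose and 3 fell at an adjusted p under 0.05, beside 25.2% and 23.6% of all genes tested. FLI1, a factor of blood and endothelial cells, fell with no overlap between groups. It had 209, 251 and 239 counts in the controls against 74, 60 and 54 with shMUC1, with 9.70 ± 0.545 and 2.64 ± 0.289 CPM and a log2 fold change of -1.89 (SE 0.153, adjusted p = 5.26e-13 by edgeR), and was the only one of the 7 with a fold change over 2. Its exons overlap SENCR and AP001122.1 on the opposite strand. The ternary complex factors ELK4 and ELK1 fell by 0.26 (SE 0.034, adjusted p = 4.38e-08) and 0.12 (SE 0.045, adjusted p = 0.0258) on the log2 scale by edgeR, next to -1.09 for ELK3, the third of that subfamily. The call on ELK1 was lost under 5 of 15 alternatives, among them leaving out control replicate 1, shMUC1 replicate 1 or shMUC1 replicate 2, where its log2 fold change was -0.11 to -0.10 and its adjusted p by edgeR 0.0712 to 0.110.

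The 4 genes that rose were ETV6, a repressor, and all 3 of the ELF subfamily. By edgeR, ETV6 rose by 0.47 on the log2 scale (SE 0.051, adjusted p = 6.57e-10), from 65.4 ± 4.08 to 90.4 ± 4.54 CPM. ELF2 rose by 0.45 (SE 0.047, adjusted p = 3.10e-10), ELF4 by 0.21 (SE 0.051, adjusted p = 0.000799) and ELF1 by 0.16 (SE 0.041, adjusted p = 0.00141). ELF2 has a named pseudogene, ELF2P3, with which reads could be shared, as ELK1 has ELK1P1, and exons of ELF1 and ELK4 overlap genes on the opposite strand (WBP4, and AC096533.1 and MFSD4A). The other 5 tested genes did not pass, namely ERG, GABPA, ERF, ETV3 and ETV2, and their log2 fold changes lay between -0.61 and 0.04. FEV, SPI1 and SPIC had 0 counts in all 6 libraries, and ETV7, ETV3L and SPIB were too low to test.

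**Figure D2:**
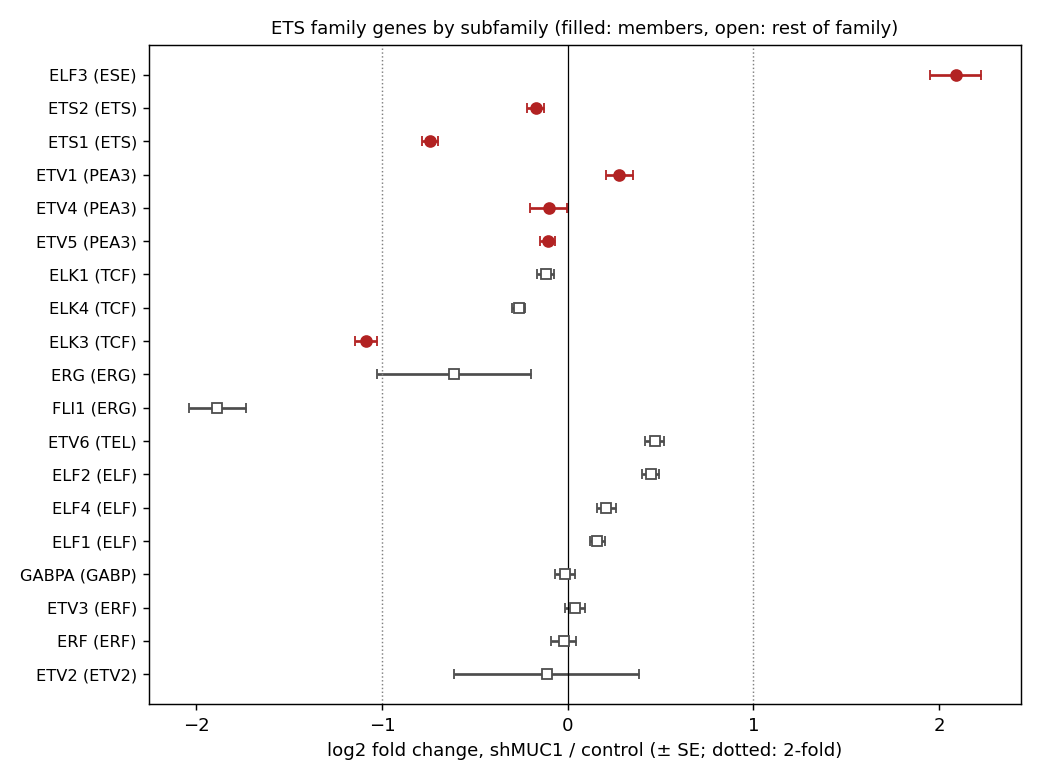
Log2 fold change, shMUC1 over control, with its SE for the 19 ETS family genes tested, ordered by subfamily, with filled circles for the members and open squares for the rest of the family (dotted lines mark 2-fold). ELF3 at 2.09 lies alone on the right and FLI1 at -1.89 and ELK3 at -1.09 on the left, while the 3 ELF genes sit between 0.16 and 0.45.

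Position on the chromosome was compared for the neighbouring pairs. ETS1 and FLI1 lie 99.0 kb apart on chromosome 11 and had log2 fold changes of -0.74 and -1.89. ERG and ETS2 lie 144 kb apart on chromosome 21 and had log2 fold changes of -0.61 (SE 0.415) and -0.17 (SE 0.048), and ERG had a mean of 19.2 counts.

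To set the genes side by side, levels were divided by the length of all annotated exons of each gene (CPM per kb). In control cells the highest were ELK1 at 26.9 ± 0.879, ETV5 at 25.3 ± 1.22, ELF1 at 22.5 ± 0.224 and ELK4 at 20.9 ± 0.589 CPM per kb (SD, n = 3 each). ETS2 at 18.1 ± 0.704, ETS1 at 17.6 ± 0.583 and ELK3 at 16.8 ± 1.35 followed, and these neighbours differed by less than their summed SDs. ETV4 at 4.53 ± 0.232, ETV1 at 3.19 ± 0.183 and ELF3 at 0.466 ± 0.075 came lower, and ELF3 stood at rank 17 of the 28.

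In shMUC1 cells ETS1 went from rank 6 to rank 11 with 10.5 ± 0.289 CPM per kb, and ELK3 from rank 7 to rank 13 with 7.87 ± 0.492 CPM per kb. ELF3 reached 1.99 ± 0.162 CPM per kb at rank 16. It passed FLI1, which went from 1.19 to 0.323 CPM per kb, and stayed below ETV1 at 3.86 CPM per kb. The per-length level of the 4 epithelium-specific members summed to 0.486 ± 0.085 in control and 2.04 ± 0.198 in shMUC1 cells, and that of the other 6 members to 85.5 ± 3.68 and 66.0 ± 1.90.

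As a share of the per-length level of the whole family, ELF3 went from 0.208% ± 0.030 to 0.944% ± 0.056 (SD, n = 3 each). ELK3 went from 7.50% ± 0.471 to 3.74% ± 0.170 and ETS1 from 7.88% ± 0.122 to 5.01% ± 0.087. The family total was 223 ± 3.91 CPM per kb in control and 210 ± 4.78 in shMUC1 cells. With the longest annotated transcript as the length, the control level was 0.671 for ELF3, 24.5 for ETS1, 18.5 for ELK3 and 35.7 for ETV5. ELF3 kept rank 17 in control, whereas ETV5 took rank 1 from ELK1, ELF2 moved from rank 13 to rank 8, and ETS1 went from rank 5 in control to rank 9 in shMUC1 cells.

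**Figure D3:**
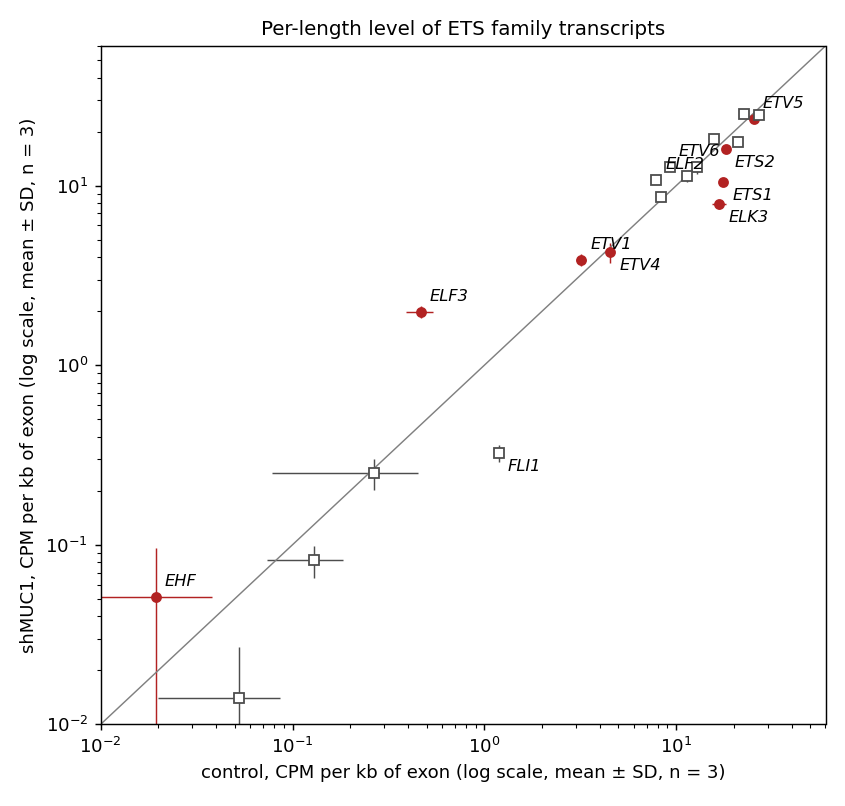
Mean level in shMUC1 against control cells, in CPM per kb of exon (log axes, bars are SD, n = 3, and run off the axis where they pass below it), for the ETS family genes above 0.05 in at least 1 group, with members as filled circles and a grey line of equal levels. ELF3 lies above the line at 0.466 and 1.99, whereas ELK3, ETS1 and FLI1 lie below it.

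The 3′ UTR word was set beside the changes of the family. Of 11214 genes that averaged 50 counts or more and had a 3′ UTR in the annotation, 1729 (15.4%) held ATCAGTA and had a median log2 fold change of -0.09, against 0.01 for 3213 genes with its last 6 bases (TCAGTA) alone and 0.06 for 6272 genes with neither. Among those with the word, 5.03% were called lower at a fold over 2, against 1.81% and 1.45%. The word was chosen with this relation known, so the figures describe it and are not independent evidence. A gene counted as holding the word if any of its annotated 3′ UTRs did. The length of the 3′ UTRs was not compared between the classes.

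Of the 17 ETS family genes in that set, 3 (17.6%) held the word, and these were ELK3, FLI1 and ELK4, all lower in shMUC1 cells. ETS1 held TCAGTA alone, as did ETV1, ETV5, ETV6, ELF2, ELF4, ETV3 and GABPA, and the log2 fold changes of these 8 ran from -0.74 for ETS1 to 0.47 for ETV6. ELF3, ETS2 and ETV4 held neither. ELK3 was lower than all but 4.28% of the genes with the word, FLI1 than all but 0.405%, and ELK4 than all but 34.4%. ETS1 was lower than all but 4.26% of the genes with TCAGTA alone, a place like that of ELK3 in its class. The 3′ UTR of MUC1, the gene targeted by the shRNA, also held the word. The part of the word in these changes was not tested.

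**Figure D4:**
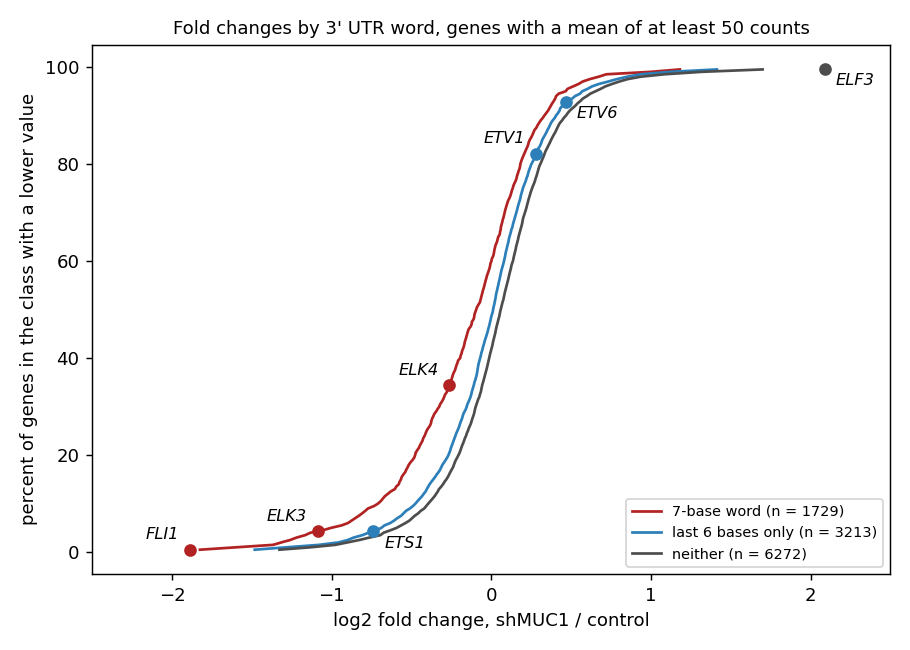
Percent of genes with a lower value (vertical axis) against log2 fold change, shMUC1 over control (horizontal axis), for genes with the 7-base word in the 3′ UTR (red, n = 1729), with its last 6 bases alone (blue, n = 3213) and with neither (grey, n = 6272), with 7 ETS genes as points on their class. The red curve lies left of the others (median -0.09 against 0.01 and 0.06), and FLI1 and ELK3 sit at its lower end.

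Genes that act with or are linked to the ETS factors were then examined in lists. These are described by counts and medians beside the 25.2% and 23.6% of all genes called higher and lower. The lists were chosen with earlier results of these data known, so their counts and p-values are not independent evidence. Of 11 partners and regulators of ETS proteins, 3 rose and 0 fell by edgeR, with 0 lower also at an unadjusted p under 0.05, by DESeq2 and by limma-voom, and the median log2 fold change was -0.003. SRF, the serum response factor that ELK proteins bind with, rose by 0.31 (SE 0.051, adjusted p = 4.17e-06). ATXN1 rose by 0.28 (SE 0.074, adjusted p = 0.00202) and ATXN1L by 0.16 (SE 0.040, adjusted p = 0.000918), and both encode partners of CIC, the repressor of the PEA3 genes. CIC itself did not pass, at -0.07 (SE 0.050, adjusted p = 0.252).

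Among 13 genes that respond to ERK signalling, which drives many ETS factors, 3 rose and 5 fell, with a median of -0.19. SPRED3, an inhibitor of RAS to ERK signalling, fell by 0.97 (SE 0.153, adjusted p = 1.48e-06), PHLDA1 by 0.74 (SE 0.045, adjusted p = 2.91e-16) and the receptor gene EPHA4 by 0.65 (SE 0.041, adjusted p = 4.54e-16). DUSP5, an ERK phosphatase, rose by 0.53 (SE 0.045, adjusted p = 2.02e-12). PHLDA1 holds the 3′ UTR word, as do SPRED1, which fell by 0.33, and SPRY2, which did not pass at -0.19. The list therefore did not move in 1 direction.

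Serum response genes, the targets of SRF with ELK proteins, were split in the same way, with 3 of 9 tested genes higher, 2 lower and a median of 0.14. EGR1 fell by 1.02 (SE 0.102, adjusted p = 1.24e-10), from 24.9 ± 3.84 to 12.3 ± 1.24 CPM, and MCL1, a survival factor, fell by 0.20 (SE 0.033, adjusted p = 2.47e-06). JUNB rose by 0.63 (SE 0.058, adjusted p = 1.33e-11) and ZFP36, which binds AU-rich messages, by 0.51 (SE 0.088, adjusted p = 7.89e-06). The third that was higher, EGR3, was named after its values were seen, with 6, 20 and 15 counts in the controls against 20, 26 and 34 with shMUC1. Its call was lost without control replicate 1 or 3 or shMUC1 replicate 2 or 3, at log2 fold changes of 0.62 to 1.12 and an adjusted p by edgeR of up to 0.330. It was also lost with DESeq2 size factors, library totals only, halved counts, limma-voom and DESeq2.

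Proteases known as ETS1 and PEA3 targets were listed with PLAUR and HPSE, which do not encode proteases, and this list was split too. All 6 listed genes that could be tested passed, with 3 higher and 3 lower and a median of 0.08. PLAU, which encodes urokinase, fell by 1.03 (SE 0.039, adjusted p = 1.38e-22), from 220 ± 1.24 to 107 ± 5.15 CPM. Its receptor gene PLAUR fell by 0.43 (SE 0.093, adjusted p = 0.000204) and MMP14 by 0.40 (SE 0.157, adjusted p = 0.0355). HPSE, the heparanase, rose by 0.56 (SE 0.099, adjusted p = 9.95e-06). The other 2 that rose, named after their values were seen, were MMP3, with 16, 11 and 10 counts in the controls against 58, 50 and 34 with shMUC1, and MMP1, with 22, 14 and 26 against 47, 42 and 25. Leaving out control replicate 1 or 3 or shMUC1 replicate 1 or 2 lost the call on MMP14, at -0.40 to -0.31 and an adjusted p by edgeR of up to 0.151. The call on MMP1 was lost without control replicate 2 or shMUC1 replicate 1 or 2, at 0.64 to 0.83 and an adjusted p by edgeR of up to 0.166. The median turned to -0.44 where genes under a mean of 50 counts were left out.

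Of the genes linked to the epithelium-specific factors, KRT8, KRT18, TGFBR2 and LCN2 were higher, and most others were barely detected. Of 14, 5 were tested, 4 rose and 0 fell, with a median of 0.99 (0 fell as well at an unadjusted p under 0.05 and by DESeq2 or limma-voom), and the other 9 had 0 to 10 counts in each library. KRT18 rose by 1.02 (SE 0.037, adjusted p = 2.53e-23), from 131 ± 4.01 to 266 ± 6.11 CPM, and KRT8, its keratin partner, by 0.95 (SE 0.031, adjusted p = 1.05e-24), from 426 ± 15.0 to 825 ± 14.6 CPM. TGFBR2, a receptor gene regulated by ELF3, rose by 0.99 (SE 0.044, adjusted p = 1.91e-20). The fourth, LCN2, was named after its values were seen and had 6, 2 and 2 counts in the controls against 28, 28 and 16 with shMUC1. PTGS2 did not pass, at 0.43 (SE 0.354, adjusted p = 0.327). Among genes too low to test, NOS2, CLDN7, SERPINB5 and SPRR1B were named after their values were seen. NOS2 had 6, 10 and 4 counts in the controls against 2, 0 and 0 with shMUC1, and CLDN7 2, 2 and 5 against 4, 4 and 0. SERPINB5 and SPRR1B were higher without overlap, with 0, 2 and 2 against 4, 8 and 6, and 0, 0 and 0 against 4, 2 and 2. TGM3, CSN2 and TFF3 had 0 counts in all 6 libraries.

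Markers of luminal epithelium and of mesenchymal breast lines were set beside ELF3. These lists too were chosen with earlier results of these data known, and their figures are a description. The summed level of 14 luminal markers was 16.6 to 18.1 CPM in control and 31.4 to 39.2 CPM in shMUC1 libraries, with 4 of 6 tested genes higher, 0 lower (also 0 at an unadjusted p under 0.05 and by DESeq2 or limma-voom) and a median of 0.81. EPCAM, an epithelial adhesion molecule, rose by 2.12 (SE 0.140, adjusted p = 1.76e-15), and had 68, 98 and 70 counts in the controls against 392, 345 and 287 with shMUC1. MARVELD2, a tight junction gene, rose by 1.31 (SE 0.262, adjusted p = 6.80e-05), GATA3 by 0.88 (SE 0.203, adjusted p = 0.000429) and FOXA1 by 0.37 (SE 0.130, adjusted p = 0.0160). The call on FOXA1 was lost without shMUC1 replicate 1 or 3, at 0.31 in both and an adjusted p by edgeR of up to 0.0931. The epithelial regulators GRHL2 and OVOL1 had 0 counts in all 6 libraries. KRT19, RAB25 and ESRP1 were named after their values were seen. KRT19 had 2, 0 and 2 counts in the controls and RAB25 had 0, 2 and 4, and both had 0 in every shMUC1 library. ESRP1 went the other way, with 0 in every control library against 0, 4 and 3 with shMUC1. ELF3 was thus higher in cells in which several defining luminal genes were at or near 0.

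Of 10 mesenchymal markers, 3 rose and 6 fell, with a median of -0.42 and a summed level of 3939 to 4021 CPM in control and 3862 to 4000 CPM in shMUC1 libraries. CAV1 and FN1, named after their values were seen, had the highest levels of the list and were among those that rose. CAV1 went from 1552 ± 21.8 to 1742 ± 43.2 CPM, a log2 fold change of 0.17 (SE 0.026). FN1 went from 962 ± 17.7 to 1285 ± 11.4 CPM, a log2 fold change of 0.42 (SE 0.027). ZEB2, a repressor of epithelial genes that binds CACCTG, fell by 1.83 (SE 0.045, adjusted p = 4.16e-28), and ZEB1 by 0.97 (SE 0.078, adjusted p = 3.71e-13). Both hold the 3′ UTR word printed above for ELK3, as does PTGS2, which had a positive log2 fold change that did not pass. SNAI2, whose protein binds the same E-box, rose by 1.14 (SE 0.088, adjusted p = 1.16e-13), and VIM fell by 0.78 (SE 0.035, adjusted p = 2.10e-20). The part of these genes in the level of ELF3, whose upstream window holds CACCTG, was not tested.

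**Figure D5:**
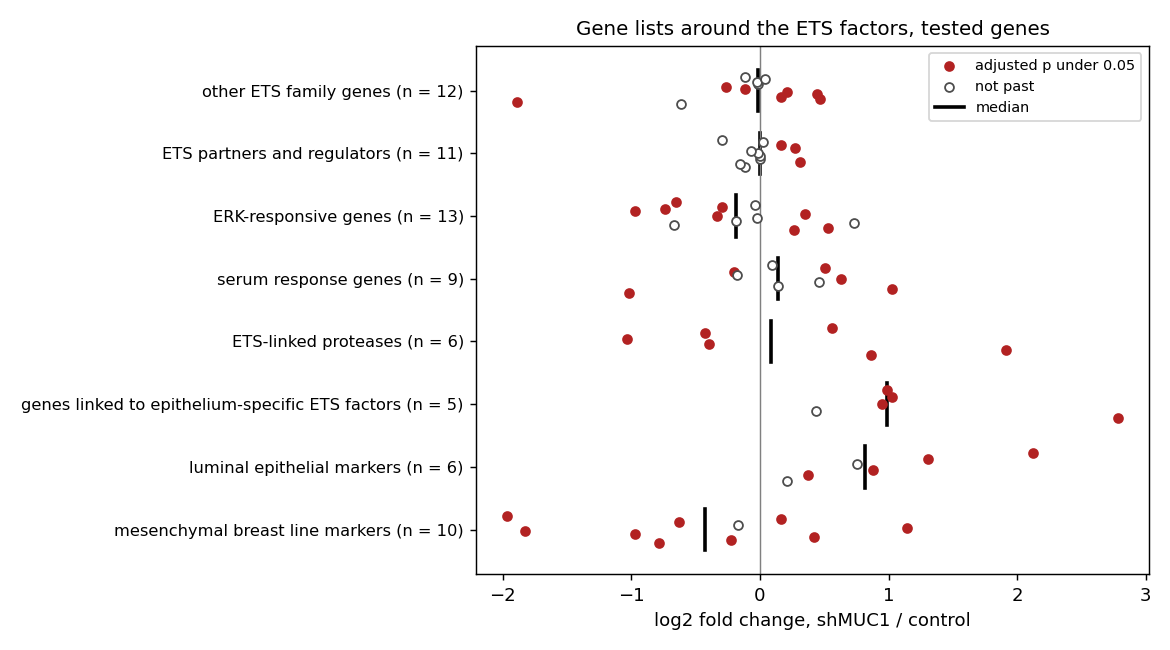
Log2 fold change, shMUC1 over control, of each tested gene in 8 lists around the ETS factors, with filled points past an adjusted p under 0.05, open points not past it, and a black bar for the median of each list. The genes linked to epithelium-specific factors (median 0.99) and the luminal markers (0.81) lie right of 0 and the other lists straddle it.

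The genes whose profile over the 6 libraries came closest to that of ELF3, among 11127 with a mean of at least 100 counts, were MYO1D, NRP2, LINC02577 and C6orf132. The measure was the Euclidean distance between log2 CPM values centred on the control mean. A constant was added to each CPM value before the log, which shrinks changes at low CPM, such as that of ELF3. The constant was not small beside the control level of ELF3, 3.35 CPM. The distances were 0.193, 0.264, 0.310 and 0.355, and their order without the constant was not examined. MYO1D, an unconventional myosin, went from 12.6 ± 1.83 to 47.2 ± 1.61 CPM, and NRP2, a co-receptor of semaphorins, from 2.63 ± 0.367 to 11.6 ± 0.939 CPM. C6orf132 went from 6.11 ± 0.330 to 24.2 ± 1.62 CPM, a log2 fold change of 1.99. It holds the 3′ UTR word, as did 15.4% of the genes examined for it above. The 4 were picked for this likeness, and no test was made.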

How the data were processed

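RNA-seq was performed on 6 libraries from cells cultured in triplicate, which were compared as separate replicates, and p-values measure the spread between them. The file the authors deposited holds raw counts by gene symbol. The submitters' processing notes name CASAVA 1.8.2, STAR 2.7.9a, featureCounts, DESeq2 1.24.0 and GRCh38.p7, and the kit was stranded. The strand setting and annotation release are not given in the sources used here. Of deposited values from 1 to 20 counts, 69.6% (control) and 70.2% (shMUC1) were even, as happens where both mates of a read pair are counted, so counting errors may be too small and halved counts were tried. Intervals and floors cover counting error only, with no molecular identifiers.

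The main test was edgeR's quasi-likelihood fit to the counts (edgeR 4.0.16, R 4.3.3, TMM, filterByExpr, group as the only term), two-sided, with Benjamini-Hochberg adjustment over 15355 genes. SEs came from the F statistic. CPM used TMM-scaled library sizes. Symbols were matched to GENCODE 29 (GRCh38, 98.1% of rows) for coordinates, exon lengths and 3′ UTRs. Promoters came from RefSeq GRCh38.p14. ETS1, ETV4, ETV5, FLI1, ETV7 and SPI1 had no entry.

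The members, the lists and the word were chosen with earlier results of these data known. Named were all members, other ETS genes past the adjusted p, up to 4 genes per other list with the largest change past the adjusted p at a mean of at least 50 counts, markers at 0 in all libraries, MUC1 and the 5 genes nearest ELF3, of which 1 is not reported here. Alternatives were DESeq2 size factors, library totals, no low-count filter, DESeq2 1.42.0, a floor of 50 mean counts, limma-voom (limma 3.58.1), a replicate block, each library left out, halved counts, a prior count of 2, a fold of 1.5 and the longest transcript. The fits were tested on simulated data.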

Additional observations from a re-analysis of the deposited data

How the results depend on the processing

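The sign of the log2 fold change was kept in 105 of 105 alternative values of the 7 tested members. ELF3 ranged from 1.99 to 2.21, ETS1 from -0.76 to -0.71, ELK3 from -1.13 to -1.02 and, outside the members, FLI1 from -1.94 to -1.80. Libraries that share a replicate number did not deviate together (correlations 0.0049, -0.032 and -0.038), and with the replicate block the 4 stood at 2.09, -0.74, -1.09 and -1.89. The genome-wide counts of calls at a fold over 2 were 339 higher and 575 lower. They became 177 and 275 with a mean of at least 50 counts, where fewer genes were tested, and 846 and 1280 at a fold over 1.5, which is a wider threshold. With a mean of at least 50 counts, 1 gene of the protease list (HPSE, not itself a protease gene) was higher in place of 3, since MMP1 and MMP3 were left out. Leaving out each library in turn gave 0 to 1 partner or regulator lower, with GABPB1 lower without shMUC1 replicate 2, and the cause was not tested. The calls on ELK1, EGR3, MMP1, MMP14 and FOXA1, all at an adjusted p of 0.0160 or more by edgeR, were lost without some single library, and DESeq2 lost them too. The replicate block moved the call of 1 gene in the lists, IER2, which passed as lower, and gave 339 and 558 genome-wide calls. It changed no other call in the lists or the family. The serum response list had 3 lower genes in place of 2 under other settings as well. These were halved counts, library totals only, a mean of at least 50 counts, and leaving out control replicate 2 or shMUC1 replicate 1. List medians rest on few genes, and for the protease list ran from -0.44 to 0.14, for the luminal markers from 0.57 to 1.07 and for the ERK-responsive genes from -0.29 to -0.12. Per-length levels rose with the longest transcript, since the divisor is shorter. Depth limits EHF, with at most 10 counts in a library, and ELF5 and SPDEF, for which up to 3 counts per library could not be told from 0.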
